A study of Mus musculus with 16 samples.

Results

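Metallothioneins are small cysteine-rich proteins that bind zinc and copper in the cell, and zinc transporters carry the metal across membranes. Levels of 7 such genes were followed in epithelial cells of the mouse caecum: the metallothioneins Mt1 and Mt2, the zinc-sensing transcription factor gene Mtf1, the exporters Slc30a1 and Slc30a10 and the importers Slc39a4 and Slc39a5. They were found by symbol among the 24091 genes of the deposited expression table. Each of the 7 had 1 row, and all 7 had a mean level of at least 1 TPM (transcripts scaled for length and for the total of the library), the minimum for testing, which 12155 genes of the table met. The 7 were selected on TPM differences between the groups of these same libraries, the higher Mt1 and Mt2 levels under ampicillin among them. Their values are therefore given as a description with no p-values.

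The study is about histone butyrylation in the gut of the mouse, and 9 RNA libraries of caecal epithelial cells from C57BL/6 mice were used. The 3 groups had 3 libraries each, and mice of all groups drank water with Splenda, a sweetener, at 10 g/L. The vehicle group had no antibiotic and received a mock gavage of 25% glycerol on day 7. The ampicillin group had the antibiotic at 1 g/L in its water for 7 days and the same mock gavage, and the tributyrin group had ampicillin for 7 days and a gavage of tributyrin, an ester of glycerol and butyrate. Tissue of each group was taken 6 h after the gavage. No label states an age, or whether separate mice gave the 3 libraries of a group, so the p-values measure only the spread between these libraries, which may be technical. A group that had tributyrin without ampicillin was not among the libraries, so each effect of tributyrin described here is one measured under the antibiotic. The other 7 of the 16 samples are chromatin samples and were not analysed here.

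In textbook terms, a rise in free zinc lets the MTF1 protein bind metal response elements, short DNA motifs near the start of its target genes. Mt1, Mt2 and Slc30a1 are its best known targets, and metallothionein genes also respond to glucocorticoids, copper, cadmium and oxidative stress. Proteins of the SLC30 (ZnT) family move zinc out of the cytosol, to the outside or into organelles, and those of the SLC39 (ZIP) family move it into the cytosol. In the gut, ZIP4, made from Slc39a4, takes up dietary zinc at the apical membrane of enterocytes, and ZIP5, made from Slc39a5, sits on the basolateral side. ZnT10, made from Slc30a10, is best known as an exporter of manganese, although it belongs to the zinc exporter family.

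The promoter stretches are shown because the metal response element is the sequence through which MTF1 acts. The core was searched on both strands as TGCACNC or TGCGCNC in RefSeq's window of 300 bases around each annotated start (250 before and 50 after, build GRCm38.p6), and 6 of the 7 genes had an entry. Capitals mark core matches on either strand, and a core on the opposite strand appears as its reverse complement. Each stretch is written 5′ to 3′ on the strand of its gene. For Mt2, the 250 bases before the start are chr8:94172368-94172617, plus strand, with 3 matches. A further match lies 5 to 11 bases after the start.
Mt2: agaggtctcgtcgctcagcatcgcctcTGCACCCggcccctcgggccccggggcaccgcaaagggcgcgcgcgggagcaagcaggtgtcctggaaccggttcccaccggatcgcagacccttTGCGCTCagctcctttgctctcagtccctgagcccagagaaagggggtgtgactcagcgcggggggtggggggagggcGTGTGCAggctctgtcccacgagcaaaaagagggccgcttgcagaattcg
For the other genes, 30 bases around matches are given: Mt1 at chr8:94179088-94179117 (plus strand), Slc30a10 at chr1:185454604-185454633 (plus), Slc30a1 at chr1:191906726-191906755 (plus) and Slc39a5 at chr10:128401336-128401365 (minus).
Mt1: ctcTGCACTCcgcccgaaaagTGCGCTCgg
Slc30a10: cgtaggcagcgGTGCGCACacccactacag
Slc30a1: aacgggggttccGAGTGCAaagcaaagttt
Slc39a5: agaggttagcagGTGTGCActtagggaatt

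The whole windows held 4 matches for Mt2, 3 for Mt1, 3 for Slc30a10, 2 for Slc30a1 and 0 for Mtf1. The Mt1 matches lie 23 bases before the start used for its window (94178839 to 94179138) and 3 and 21 bases after it. The gene entry of Mt1 begins before that start, at 94178883, so all 3 matches lie inside the entry. Which start these cells used was not measured, and bases outside the window were not searched. The starts used for the Slc30a1 and Slc39a5 windows also lie inside their gene entries. Of the 3 in Slc30a10, 2 are the same 8 bases read on either strand, the palindrome in capitals above. Slc39a5 has 2 annotated starts, with 1 match in the window of the first and 0 in that of the second. Of all 32851 windows of this length in the table, 25.7% held at least 1 match, 7.11% at least 2, 1.97% at least 3 and 0.517% at least 4. The Mt1, Mt2, Slc30a1 and Slc30a10 windows are rich in G and C (60.7 to 73.0%, against a median of 52.7% over all windows). So is the Mtf1 window (66.3%), which held 0 matches. The antioxidant response element, searched as TGACNNNGC on both strands, matched once in the Mt2 window, once in that of Slc30a1 and 2 times at the second start of Slc39a5, and 12.4% of all windows held at least 1. These are matches of letters, not measured binding sites.

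**Figure D1:**
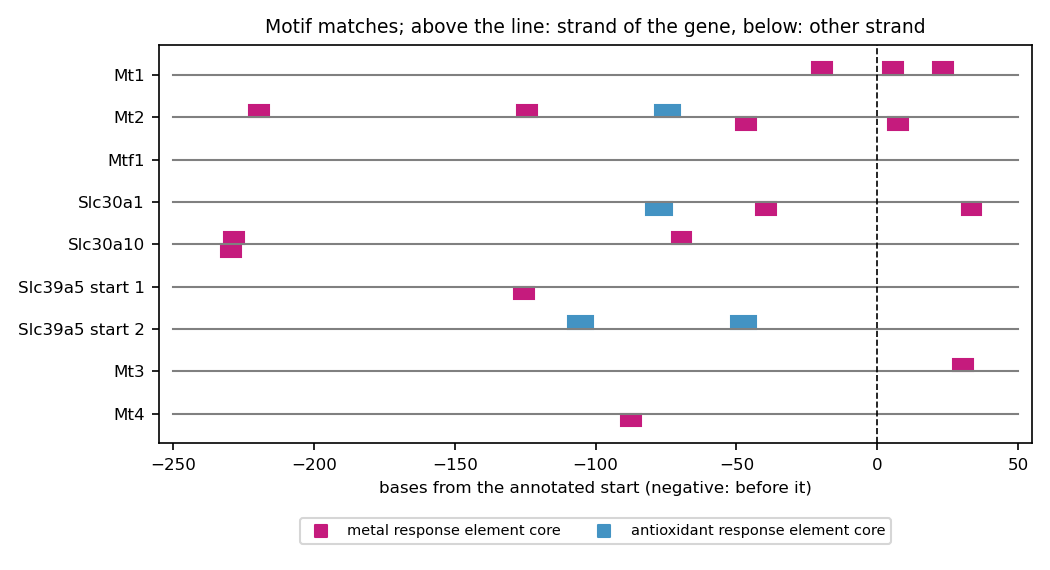
Motif matches in the 300-base promoter windows of 6 of the 7 genes and of the neighbouring metallothionein genes Mt3 and Mt4, by distance in bases from the annotated start (dashed line); boxes above a line are on the strand of the gene and boxes below it on the other. Mt2 holds 4 metal response element cores and Mtf1 holds 0.

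Mt1 (gene ID 17748, chromosome 8, 94178883 to 94180327) was the most abundant of the 7. It stood at 729, 584 and 712 TPM in the 3 vehicle libraries, at 2368, 2542 and 2339 TPM with ampicillin, and at 1661, 1543 and 1716 TPM with ampicillin and tributyrin. The 3 groups did not overlap: all ampicillin libraries were above all tributyrin libraries, and these above all vehicle libraries. The ampicillin mean was 3.58 times the vehicle mean, a difference of 1.84 ± 0.09 (SE) in log2(TPM + 1). The tributyrin mean was 0.679 times the ampicillin mean (log2 difference -0.56 ± 0.09) and 2.43 times the vehicle mean. Among all genes of a library ordered by TPM, Mt1 stood at rank 224 to 267 with vehicle, 55 to 63 with ampicillin and 101 to 119 with tributyrin.

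Mt2 (gene ID 17750, chromosome 8, 94172618 to 94173567) lies 5315 bp from Mt1. It was at 397, 325 and 339 TPM with vehicle, 1367, 1524 and 1345 TPM with ampicillin, and 1047, 1101 and 1098 TPM with tributyrin. Its groups fell in the same order as those of Mt1, again without overlap. The ampicillin mean was 3.99 times the vehicle mean (log2 difference 2.0 ± 0.08). With tributyrin it was 0.766 times the ampicillin mean (log2 difference -0.38 ± 0.08) and 3.06 times the vehicle mean. The difference from ampicillin alone was a smaller part of the level for Mt2 than for Mt1, a contrast between the 2 genes that was not tested.

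Mt1 and Mt2 are close relatives whose reads may be divided between them in error, so their sum was taken too. The sum was 1126, 909 and 1051 TPM with vehicle, 3735, 4066 and 3685 TPM with ampicillin and 2708, 2644 and 2815 TPM with tributyrin. As a share of all TPM of a library, the pair made up 0.0909 to 0.113% with vehicle, 0.369 to 0.407% with ampicillin and 0.264 to 0.282% with tributyrin. The split between them also differed: the ratio of Mt1 to Mt2 TPM was 1.80 to 2.10 with vehicle, 1.67 to 1.74 with ampicillin and 1.40 to 1.59 with tributyrin. Mt1 was above Mt2 in each of the 9 libraries, and its share of the pair was lowest in the tributyrin libraries, at 58.4 to 61.3%.

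**Figure D2:**
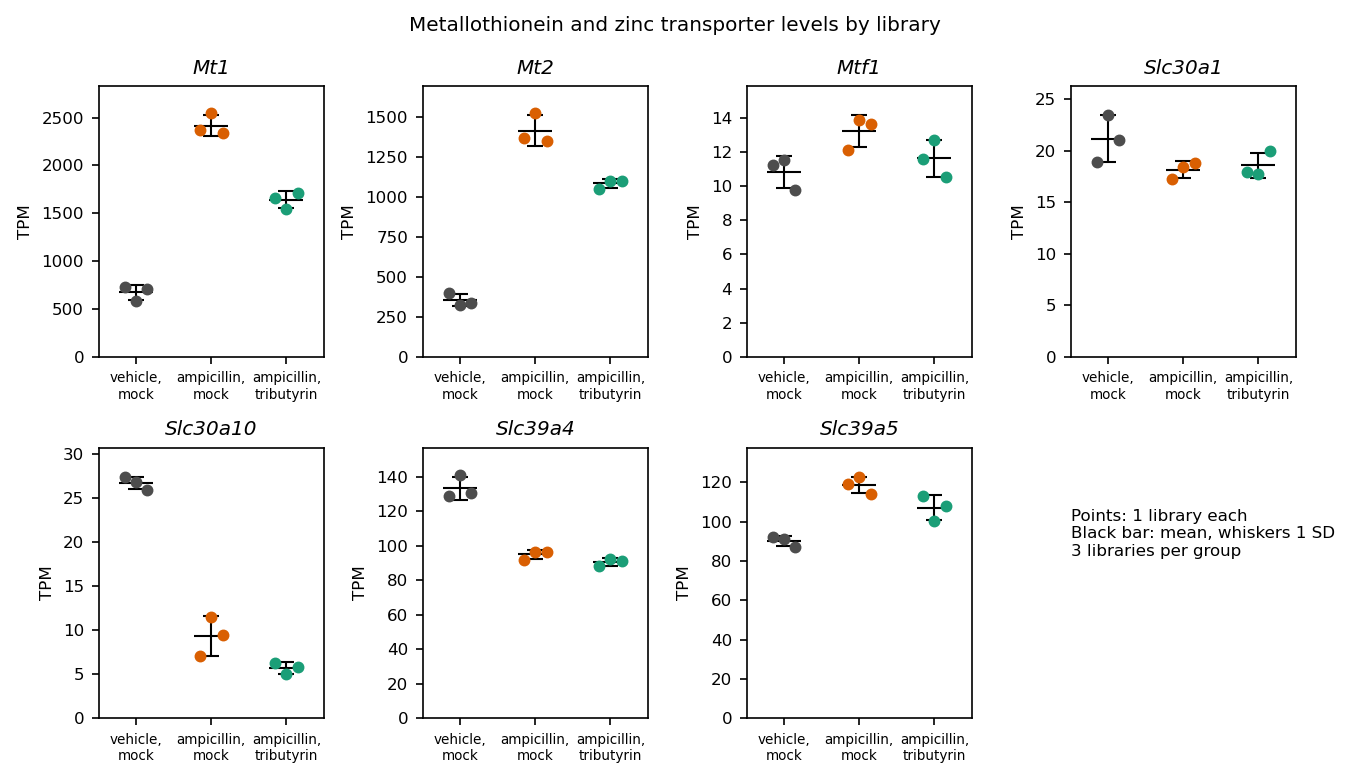
TPM of the 7 genes in each of the 9 libraries, by group, with the group mean (black bar) and 1 SD (whiskers). Mt1 and Mt2 are highest with ampicillin and lie between with tributyrin, while Slc30a10 is at 25.9 to 27.3 TPM with vehicle and under 12 TPM in the 6 libraries with ampicillin.

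Mtf1 (gene ID 17764, chromosome 4, 124802549 to 124849800), which encodes the zinc-sensing factor, was far below the metallothioneins. It was at 11.2, 11.5 and 9.77 TPM with vehicle, 12.1, 13.9 and 13.7 TPM with ampicillin and 11.6, 12.7 and 10.5 TPM with tributyrin. The vehicle and ampicillin libraries did not overlap, although the highest vehicle library and the lowest ampicillin library were close. The tributyrin libraries overlapped both other groups. The log2 difference was 0.27 ± 0.09 for ampicillin against vehicle, -0.17 ± 0.09 for tributyrin against ampicillin and 0.09 ± 0.09 for tributyrin against vehicle. A neighbouring gene, 1110065P20Rik, at 29.5 to 40.8 TPM in the 9 libraries, overlaps Mtf1, and with no strand setting known the reads of the shared stretch cannot be told apart.

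Slc30a1 (gene ID 22782, chromosome 1, 191906697 to 191913248), which encodes ZnT1, the zinc exporter of the plasma membrane, did not follow the metallothioneins. It was at 18.9, 23.5 and 21.1 TPM with vehicle, 17.2, 18.4 and 18.8 TPM with ampicillin and 18.0, 17.8 and 19.99 TPM with tributyrin. The lowest vehicle library was barely above the highest ampicillin library. The log2 difference was -0.21 ± 0.08 for ampicillin against vehicle, 0.03 ± 0.08 for tributyrin against ampicillin and -0.18 ± 0.08 for tributyrin against vehicle. Its sign in the comparison of tributyrin with ampicillin changed in 4 of 18 alternative settings, so no direction is given for it there.

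Slc30a10 (gene ID 226781, chromosome 1, 185454848 to 185468762) lies on the same chromosome as Slc30a1 but 6437934 bp away. It was at 27.3, 26.8 and 25.9 TPM with vehicle, at 7.03, 11.5 and 9.44 TPM with ampicillin and at 6.32, 4.97 and 5.81 TPM with tributyrin. All 6 libraries with ampicillin were under 1/2 of the lowest vehicle library, and the tributyrin libraries were below the ampicillin libraries without overlap. The vehicle mean was 2.87 times the ampicillin mean (log2 difference of ampicillin from vehicle -1.45 ± 0.15) and 4.68 times the tributyrin mean (-2.05 ± 0.15). Tributyrin differed from ampicillin by -0.60 ± 0.15. The ampicillin group was the most variable, with a coefficient of variation of 24%, against 2.73% with vehicle and 11.9% with tributyrin.

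The overlapping long non-coding entry Gm2061 was at 3.04 to 4.09 TPM with vehicle, 4.16 to 4.67 TPM with ampicillin and 3.19 to 3.62 TPM with tributyrin. It did not share the low ampicillin levels of Slc30a10. A similar entry beside Slc30a1, 1700034H15Rik, stayed at 0.545 to 1.03 TPM in the 9 libraries.

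Slc39a4 (gene ID 72027, chromosome 15, 76612383 to 76618506), the apical zinc importer, was at 129, 141 and 130.5 TPM with vehicle, 91.8, 96.5 and 96.5 TPM with ampicillin, and 88.1, 92.5 and 91.4 TPM with tributyrin. Every library with ampicillin was below every vehicle library, whereas the ampicillin and tributyrin libraries overlapped. The ampicillin mean was 0.712 times the vehicle mean (log2 difference -0.48 ± 0.05). The tributyrin mean was 0.680 times the vehicle mean (-0.55 ± 0.05), and tributyrin differed from ampicillin by -0.07 ± 0.05.

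Slc39a5 (gene ID 72002, chromosome 10, 128395927 to 128401276), the basolateral importer, was higher than with vehicle in both groups with ampicillin, in which Slc39a4 was lower. It was at 92.3, 90.9 and 87.2 TPM with vehicle, 119, 123 and 114 TPM with ampicillin and 113, 100.4 and 108 TPM with tributyrin. The 3 groups did not overlap, with the tributyrin libraries between the other 2 groups. The ampicillin mean was 1.32 times the vehicle mean (log2 difference 0.39 ± 0.05), the tributyrin mean 1.19 times the vehicle mean (0.24 ± 0.05), and tributyrin differed from ampicillin by -0.15 ± 0.05.

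The order of the 2 importers was thus exchanged. The ratio of Slc39a4 to Slc39a5 TPM was 1.39, 1.55 and 1.5 in the vehicle libraries, 0.771, 0.786 and 0.845 with ampicillin and 0.781, 0.921 and 0.846 with tributyrin. Slc39a4 was the higher of the pair in 3 of 3 vehicle libraries and the lower in 6 of 6 libraries with ampicillin. Together the pair held 41.5 to 43.9% of the summed TPM of the 14 SLC39 genes with vehicle, 46.2 to 46.9% with ampicillin and 42.0 to 43.4% with tributyrin. The ampicillin libraries were above all others in this share.

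**Figure D3:**
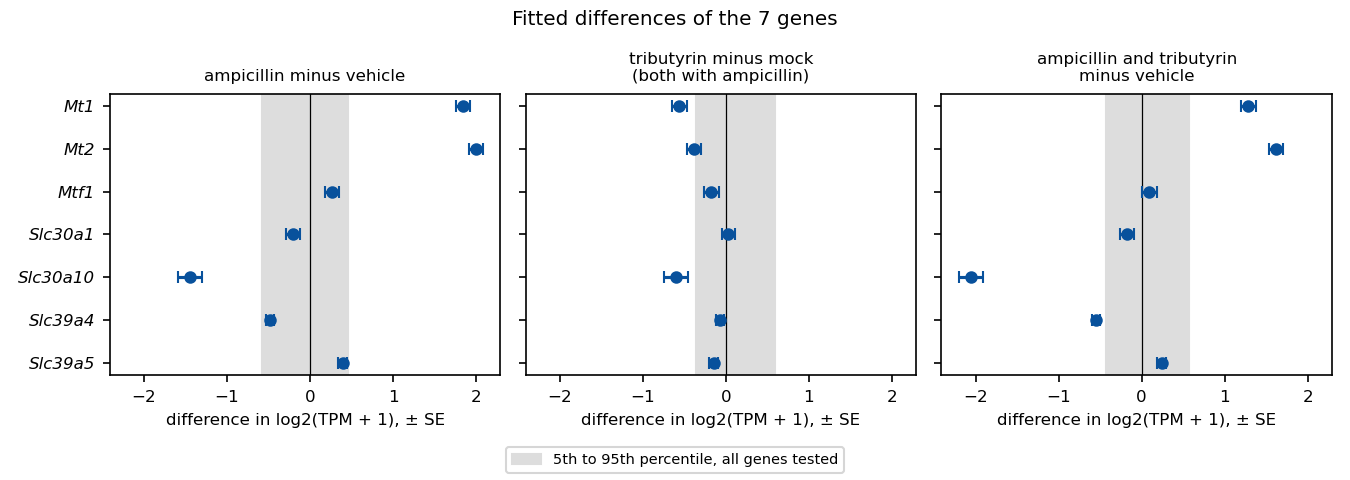
Fitted differences of the 7 genes in log2(TPM + 1), with standard errors, for the 3 comparisons; the grey band spans the 5th to 95th percentile of all 12155 genes tested. Mt1, Mt2 and Slc30a10 lie outside the band in each comparison, with Mt2 under tributyrin against mock gavage (-0.38) just past its edge (-0.36). Slc39a4 lies outside it only in the comparison of the tributyrin group with vehicle.

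In a limma fit across all genes, with a call at an adjusted p under 0.05, 5 of the 7 genes were called for ampicillin against vehicle (Mt1, Mt2 and Slc39a5 higher, Slc30a10 and Slc39a4 lower), beside 21.3% of the 12155 genes tested (11.0% higher and 10.2% lower). For tributyrin against mock gavage under ampicillin, 3 of 7 were called (Mt1, Mt2 and Slc30a10, all lower), beside 23.2% of genes tested (7.54% lower). For the tributyrin group against vehicle, 5 of 7 were called (the same 5 genes, in the same directions), beside 28.3% (19.1% higher and 9.21% lower). The groups did not overlap for 7, 4 and 5 of the 7 genes in the 3 comparisons, beside 40.8%, 42.6% and 41.7% of genes tested. Nothing is read from these counts, since the genes were chosen with the results known, and each pair of comparisons shares 3 libraries. The Slc30a10 call for tributyrin against mock gavage was lost without ampicillin replicate 2, without ampicillin replicate 3 and without tributyrin replicate 2, and also when only the 2 groups compared were fitted. Its log2 difference was between -0.46 and -0.77 over the 9 fits that left out 1 library. The median log2 difference of all genes tested was 0.02, 0.05 and 0.08 in the 3 comparisons.

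The 4 metallothionein genes of the table lie in a row on chromosome 8 in the order Mt4, Mt3, Mt2 and Mt1. Mt3, whose protein is best known from the brain, is 18469 bp from Mt2 and 13575 bp from Mt4. Mt3 was at 10.1, 11.8 and 7.87 TPM with vehicle, 3.28, 2.63 and 2.73 TPM with ampicillin and 3.52, 3.55 and 3.96 TPM with tributyrin. It fell with ampicillin (log2 difference -1.48 ± 0.13, limma adjusted p = 0.000159), opposite in sign to Mt1 and Mt2, and was also lower with tributyrin than with vehicle (-1.21 ± 0.13, adjusted p = 0.000546). Mt4, a metallothionein known from stratified epithelia, varied more within groups: it was at 15.5, 8.90 and 25.3 TPM with vehicle, 11.04, 10.5 and 8.33 TPM with ampicillin and 8.71, 4.42 and 8.32 TPM with tributyrin. It was not called in any comparison (adjusted p = 0.284, 0.367 and 0.0533).

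**Figure D4:**
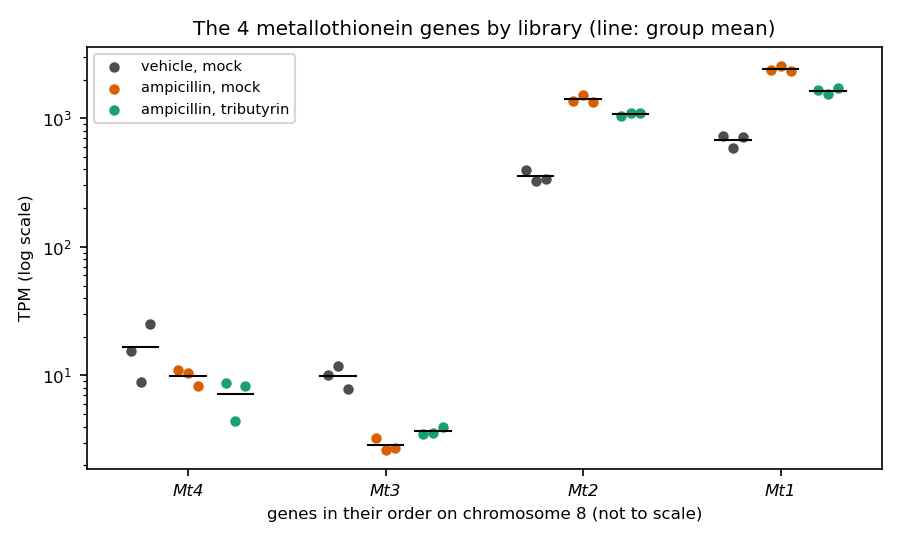
TPM of the 4 metallothionein genes in each of the 9 libraries on a log scale, in their order on chromosome 8, with group means as lines. Mt2 and Mt1 are higher with ampicillin than with vehicle in all libraries, Mt3 is lower, and Mt4 overlaps between the vehicle and ampicillin groups.

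Beyond the 7 genes, 23 others of the metallothionein, SLC30 and SLC39 families (the zinc transporter Tmem163 counted with the exporters) were in the table, and 18 had a mean of at least 1 TPM. With ampicillin, 4 of the 18 were called, all lower than with vehicle, which is 22.2% beside 21.3% of all genes tested (median log2 difference -0.11 over the 18, beside 0.02). They were Mt3 and the importers Slc39a11, Slc39a9 and Slc39a8. Slc39a11 fell from 70.3 ± 1.78 to 43.9 ± 1.80 TPM (mean ± SD, n = 3; log2 difference -0.67 ± 0.05, limma adjusted p = 5.44e-05). Slc39a9 fell from 46.7 ± 4.23 to 36.4 ± 1.21 TPM (-0.35 ± 0.07, adjusted p = 0.008). Slc39a8, whose product also carries manganese, fell from 18.5 ± 0.667 to 15.8 ± 0.721 TPM (-0.22 ± 0.05, adjusted p = 0.0189), a call lost on leaving out vehicle replicate 2 or 3 or ampicillin replicate 1 or 3 (adjusted p = 0.0574, 0.0549, 0.0676 and 0.0696).

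None of the 6 other exporters tested (Slc30a4, Slc30a5, Slc30a6, Slc30a7, Slc30a9 and Tmem163) was called with ampicillin by limma, and 0 of the 6 had an unadjusted p under 0.05. With Slc30a10 left out, the SLC30 genes summed to 132 to 141 TPM with vehicle, 131 to 144 TPM with ampicillin and 142 to 143 TPM with tributyrin. With it, they summed to 159 to 168, 138 to 153 and 147 to 149 TPM. Slc30a10 made up 15.6 to 17.2% of the family sum with vehicle, 5.08 to 7.76% with ampicillin and 3.36 to 4.25% with tributyrin.

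In the comparison of tributyrin with mock gavage under ampicillin, 2 of the 18 other family genes were called, both higher, which is 11.1% beside 23.2% of all genes tested (median log2 difference 0.11, beside 0.05). The importer Slc39a13 rose from 2.92 ± 0.225 to 4.16 ± 0.515 TPM (n = 3; log2 difference 0.39 ± 0.09, limma adjusted p = 0.0185), and Slc39a10 from 1.79 ± 0.0878 to 2.82 ± 0.579 TPM (0.44 ± 0.12, adjusted p = 0.0344). Both are expressed at low levels. Leaving out tributyrin replicate 2 or ampicillin replicate 3 ended both calls (adjusted p = 0.0658 and 0.0626 for Slc39a13, 0.119 and 0.0813 for Slc39a10). The Slc39a10 call was also lost without vehicle replicate 3, ampicillin replicate 1 or 2 or tributyrin replicate 1 (adjusted p = 0.0533, 0.0993, 0.0785 and 0.0978). Quantile normalization ended both as well. Of the 6 exporters tested, 0 were called by limma and 1 had an unadjusted p under 0.05: Slc30a5, at 33.1 ± 1.30 TPM with ampicillin and 37.0 ± 0.374 TPM with tributyrin (adjusted p = 0.0739).

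Against vehicle, the tributyrin group had 3 of the 18 called, all lower (16.7% beside 28.3%, median log2 difference -0.03 beside 0.08): Mt3, Slc39a11 (70.3 ± 1.78 against 48.3 ± 1.61 TPM, log2 difference -0.53 ± 0.05, limma adjusted p = 0.000246) and Slc39a9 (46.7 ± 4.23 against 38.9 ± 1.43 TPM, -0.25 ± 0.07, adjusted p = 0.0259). The Slc39a9 call was lost without vehicle replicate 2 or 3 or any 1 of the tributyrin libraries (adjusted p = 0.0563 to 0.0844). Of the exporters, 0 of 6 were called and 1 (Slc30a5) had an unadjusted p under 0.05.

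TPM values are scaled for transcript length, so levels are set side by side between genes here. The annotation and strand behind the values are not known, so this order between genes is approximate. Among the importers in the vehicle group, Slc39a4 was highest at 133 ± 6.73 TPM and Slc39a5 next at 90.1 ± 2.60 TPM, followed by Slc39a1 (70.4 ± 5.11 TPM) and Slc39a11 (70.3 ± 1.78 TPM), which did not differ beyond their spread. Slc39a7 and Slc39a9 overlapped each other below these, as did Slc39a8 and Slc39a14, and Slc39a3, Slc39a13, Slc39a10 and Slc39a6 were lower. In both groups with ampicillin, Slc39a5 was first and Slc39a4 the next, and Slc39a1 came after them. Slc39a11 and Slc39a7 also exchanged places there, without overlap between the 2 genes in either group with ampicillin.

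Among the exporters in the vehicle group, Slc30a5, Slc30a9, Slc30a4 and Slc30a10 ran from 32.8 to 26.7 TPM with each overlapping the next, and Slc30a1 (21.2 ± 2.30 TPM) was below Slc30a10 without overlap. With ampicillin Slc30a10 was sixth of the SLC30 genes and overlapped Slc30a7 (7.07 ± 0.332 TPM). With tributyrin it was the lowest of the 7 SLC30 genes with a mean of at least 1 TPM. Slc30a4 and Slc30a9 also exchanged places with tributyrin, with overlapping values. The sum over the 14 SLC39 genes was 506 to 528 TPM with vehicle, 450 to 474 TPM with ampicillin and 460 to 463 TPM with tributyrin. The genes Slc30a2, Slc30a3, Slc30a8, Slc39a2 and Slc39a12 were below the minimum for testing.

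**Figure D5:**
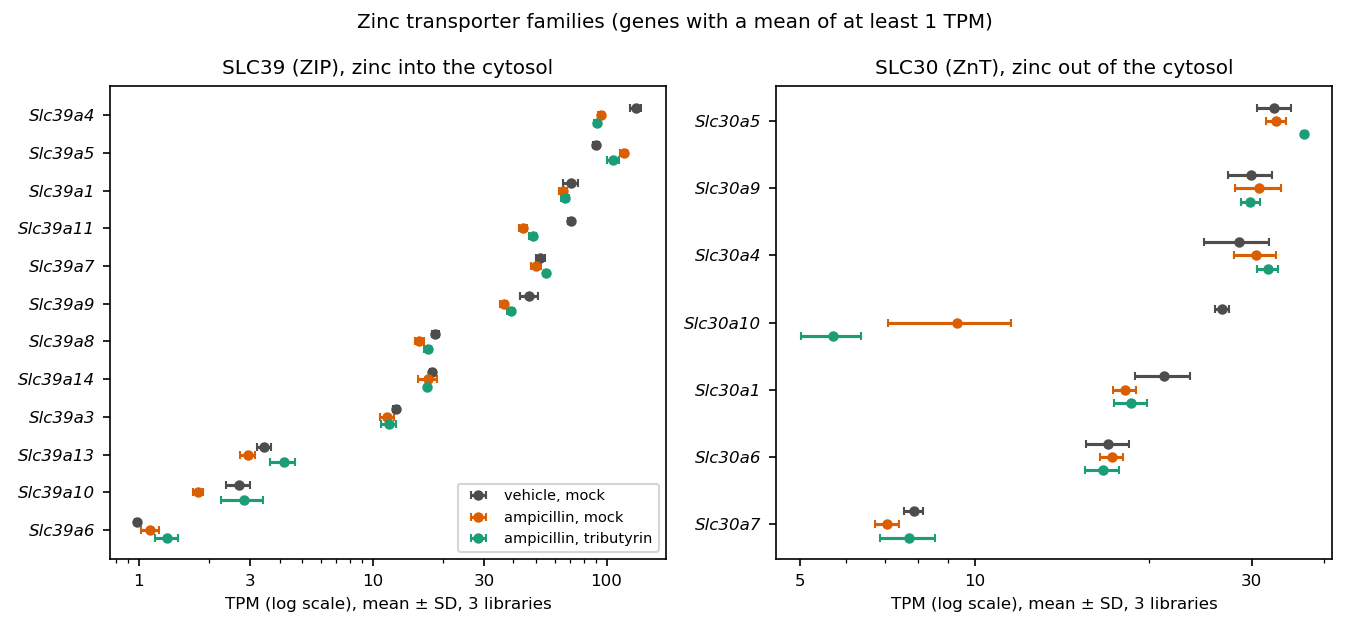
Mean TPM (log scale) with SD over 3 libraries for the SLC39 and SLC30 genes with a mean of at least 1 TPM, ordered by their level in the vehicle group. Slc39a4 and Slc39a5 exchange places between vehicle and the groups with ampicillin, and Slc30a10, among the 4 highest exporters with vehicle, is sixth with ampicillin and the lowest shown with tributyrin.

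Of 5 other genes reported as MTF1 targets, all tested, 4 were called with ampicillin: 3 higher and 1 lower (80% beside 21.3%, median log2 difference 0.68 over the 5, beside 0.02). The iron exporter gene Slc40a1 rose from 7.15 ± 0.920 to 19.9 ± 1.37 TPM (n = 3; log2 difference 1.36 ± 0.11, limma adjusted p = 8.5e-05) and fell to 14.3 ± 1.80 TPM with tributyrin (-0.45 ± 0.11, adjusted p = 0.0174). Its groups had the same order as those of Mt1 and Mt2. Gclc, which encodes the catalytic subunit of the enzyme that starts glutathione synthesis, rose from 77.0 ± 2.73 to 124 ± 4.42 TPM (0.69 ± 0.05, adjusted p = 5.11e-05). Ndrg1, a gene known for its response to hypoxia, rose from 147 ± 11 to 266 ± 16.5 TPM (0.86 ± 0.08, adjusted p = 0.000154). Csrp1 fell from 11.02 ± 1.02 to 7.15 ± 0.832 TPM (-0.56 ± 0.10, adjusted p = 0.00533), and it was higher again with tributyrin, at 12.6 ± 1.31 TPM (0.74 ± 0.10, adjusted p = 0.00195). The fifth, Slc39a10, was lower with ampicillin without overlap, at 1.79 ± 0.0878 TPM against 2.68 ± 0.325 TPM with vehicle. It was not called (-0.40 ± 0.12, limma adjusted p = 0.0541). With tributyrin against mock gavage, 3 of the 5 were called, Csrp1 and Slc39a10 higher and Slc40a1 lower (60% beside 23.2%, median log2 difference -0.10 over the 5, beside 0.05). Gclc was at 116 ± 4.01 TPM with tributyrin (-0.10 ± 0.05, adjusted p = 0.175) and Ndrg1 at 235 ± 15.1 TPM (-0.18 ± 0.08, adjusted p = 0.119), and neither was called. Against vehicle, the tributyrin group had 3 of 5 called, Slc40a1, Gclc and Ndrg1, all higher (60% beside 28.3%). Each of these genes is also known to be regulated in other ways. The list was chosen with earlier results of these data known, so nothing is read from its shares. The adjusted p-values of its genes likewise describe the fit and are not independent tests.

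For each of the 7 genes, the 3 genes most like it were taken by the smallest root mean square difference in log2(TPM + 1), each gene centred on its own mean, over the 9 libraries and 10981 genes. Nearest to Mt1 were Cyp2d26 (0.0875), Tfrc (0.126) and Cyp4f14 (0.131), beside a root mean square of 0.778 for Mt1 about its own mean. Cyp2d26, a cytochrome P450 gene, was at 124 ± 5.87 TPM with vehicle, 407 ± 4.26 TPM with ampicillin and 276 ± 10.2 TPM with tributyrin. Tfrc, the transferrin receptor gene, was at 86.6 ± 11.7, 303 ± 18.8 and 224 ± 2.03 TPM. It was also the nearest to Mt2 (0.140), followed by Susd4 (0.145) and Cyp4f14 (0.188). These distances mostly carry the 3 group means.

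The nearest genes to Slc30a10 were Ces2a (0.205), Retnlb (0.287) and Gsdmc2 (0.314), beside 0.877 for Slc30a10 itself. Ces2a, a carboxylesterase gene, was at 168 ± 19.9 TPM with vehicle, 69.1 ± 5.28 TPM with ampicillin and 50.7 ± 5.37 TPM with tributyrin, and so shared the further step down. Retnlb, which encodes an antimicrobial goblet cell protein, and Gsdmc2 did not have that step (Retnlb at 120.02 ± 13.1 TPM with ampicillin and 123 ± 23.3 TPM with tributyrin). Nearest to Slc39a4 were Vps37b, Dok4 and Als2cl (0.0515 to 0.0642), and nearest to Slc39a5 were Shpk, Sema6b and S100a1 (0.0426 to 0.0489). For Mtf1 they were Amotl2, Nvl and Sav1 (0.0493 to 0.0552) and for Slc30a1 Tasp1, Perp and Rfk (0.0388 to 0.0536), beside only 0.144 and 0.126 for the 2 genes themselves.

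The libraries carried the markers of their label: all 8 epithelial and all 6 large intestinal markers were detected. The large intestinal markers summed to 28434 to 31927 TPM in the 9 libraries, most of it from Car1 (mean 27629 TPM). The epithelial markers summed to 12722 to 14511 TPM with vehicle, 10160 to 10526 TPM with ampicillin and 11478 to 12374 TPM with tributyrin, without overlap between the groups. The 10 small intestinal enterocyte markers summed to 1752 to 2393 TPM with vehicle, highest in vehicle replicate 2, 1713 to 1926 TPM with ampicillin and 1706 to 1746 TPM with tributyrin. Most of this sum came from Fabp2 (mean 1611 TPM over the 9 libraries). In such bulk samples, fewer cells of a type and less RNA per cell cannot be told apart. Markers of some other cells also differed between the groups. Those of goblet cells overlapped: the 7 markers summed to 4971 to 7274 TPM with vehicle, 6157 to 6607 TPM with ampicillin and 6501 to 7305 TPM with tributyrin. The 5 stem cell markers summed to 56.0 to 63.6 TPM with vehicle, 39.9 to 44.0 TPM with ampicillin and 35.4 to 49.999 TPM with tributyrin, and the 7 enteroendocrine markers to 262 to 369, 203 to 217 and 199 to 258 TPM. In both lists all vehicle libraries were above all others. All 9 Paneth cell markers summed to 9.27 to 111 TPM with vehicle, 2.47 to 5.99 TPM with ampicillin and 5.86 to 6.55 TPM with tributyrin, highest in vehicle replicate 2. The 3 erythroid markers in the table (of 5 listed) summed to 8.30 to 25.3, 13.4 to 36.6 and 94.3 to 134 TPM. The 7 T and intraepithelial lymphocyte markers in the table summed to 17.5 to 20.9, 13.8 to 22.6 and 25.8 to 47.2 TPM, and the 5 endothelial markers to 3.81 to 4.38, 0.850 to 0.936 and 1.67 to 2.13 TPM. Fibroblast markers were at most 0.417 TPM, B and plasma cell markers at most 2.72 TPM and myeloid markers at most 5.80 TPM, with S100a8 at 0. The part of these cells in the levels of the 7 genes was not tested. Without vehicle replicate 2, the log2 difference of ampicillin from vehicle was 1.74 for Mt1, -1.44 for Slc30a10, -0.44 for Slc39a4 and 0.40 for Slc39a5.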

How the data were processed

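RNA of caecal epithelial cells was measured in 9 libraries, grouped by the sample titles. The deposited table holds TPM values per gene, made by the authors. Salmon 0.8.2, DESeq2 1.20.0 and mm10 are named, with no role, per the submitters' processing notes, while the index, annotation and strand were not given in the sources used here. TPM values keep no read depth, so the depth is unknown and no count model was used. All 9 columns matched a sample.

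Genes with a mean of at least 1 TPM over the 9 libraries (12155 of 24091) were taken as log2(TPM + 1) and fitted with 1 mean per group in limma 3.58.1 under R 4.3.3 (trend, 6 residual degrees of freedom, no block). A call is a two-sided Benjamini-Hochberg adjusted p under 0.05 over all genes tested. Fold changes on this scale understate those of low genes. The fit was tested on simulated data. The 7 genes and the other lists were chosen with earlier results of these data known. Adjusted p-values of listed genes are therefore not independent tests. Of the 3 zinc families each gene could be named, of other lists up to 4 called genes per comparison, and for each of the 7 the 3 nearest genes, leaving out predicted genes, pseudogenes and short RNA. Positions and promoters are from RefSeq GRCm38.p6, the same build as mm10, to which 24045 gene IDs matched. Python 3.11.15 and matplotlib 3.10.9 drew the figures. Alternatives changed the pseudocount, the filter, the scaling, the libraries, the block and the weights.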

Additional observations from a re-analysis of the deposited data

How the results depend on the processing

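Over 18 alternative settings, the log2 differences of the 7 genes kept their sign in each comparison, except Slc30a1 for tributyrin against mock gavage (-0.02 to 0.06). A pseudocount of 5 moved Slc30a10 to -1.16 (ampicillin against vehicle) and -1.57 (tributyrin group against vehicle), by the construction of that scale, and the sum of Mt1 and Mt2 gave 1.41 for the latter comparison. Of the 7 genes, 5 or 6 were called for ampicillin against vehicle, 2 to 4 for tributyrin against mock gavage and 5 for the tributyrin group against vehicle. All genes called numbered 2587, 2819 and 3444. For tributyrin against mock gavage, array weights gave 4271, and leaving out 1 library gave 1574 (without tributyrin replicate 2) to 2962, with 1749 and 1659 without ampicillin replicates 1 and 2. For the tributyrin group against vehicle, leaving out 1 library gave 2061 (without tributyrin replicate 2) to 3766. Quantile normalization moved the share of higher calls from 67.5% to 47.1% and to 50.3% in these comparisons. Of the 18 other zinc genes, tributyrin against mock gavage had 2 called, and 4 with no filter, 0 with a mean of at least 5 TPM, 0 with quantile normalization, 1 with only the 2 groups compared and 0 to 2 with 1 library left out. The tributyrin group against vehicle had 3, and 6 with no filter, 5 with a mean of at least 5 TPM, 5 with quantile normalization and 5 with array weights. The filters change which genes are tested; for the other settings the cause was not tested.

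With the replicate number as a block, the other zinc genes called were 4, 2 and 5 in the 3 comparisons (without it 4, 2 and 3), and all genes called were 2707, 3009 and 3569. Deviations of same-numbered libraries correlated at -0.05 to 0.11, and those of differently numbered libraries of 2 groups at -0.12 to 0.07. With 3 libraries per group, these values cannot tell whether the numbers mark a shared batch or pairing. Depth limits could not be given for TPM.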

Other observations

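Genes of other metals were read from lists made beside the zinc genes. These lists, and those of the next paragraph, were chosen with earlier results of these data known. Nothing is read from their counts, and the adjusted p-values of their genes describe the fit and are not independent tests. Of 10 copper genes tested, 1 rose and 1 fell with ampicillin against vehicle, which is 20% called beside 21.3% of all genes tested. The copper chaperone gene Atox1 rose from 257 ± 27.6 to 304 ± 7.71 TPM (n = 3; log2 difference 0.25 ± 0.07, limma adjusted p = 0.0445), and Ccs, which encodes the chaperone that loads superoxide dismutase, fell from 163 ± 14.8 to 116 ± 3.15 TPM (-0.48 ± 0.09, adjusted p = 0.00527). With tributyrin against mock gavage, 2 rose and 1 fell (30% beside 23.2%): Ccs rose to 159 ± 16.3 TPM (0.45 ± 0.09, adjusted p = 0.00852) and the copper importer gene Slc31a1 from 35.3 ± 0.739 to 46.2 ± 1.60 TPM (0.38 ± 0.06, adjusted p = 0.00253). Heph, the ferroxidase of iron export, fell from 54.2 ± 2.31 to 45.3 ± 2.21 TPM (-0.25 ± 0.07, adjusted p = 0.032). Of 4 genes of manganese and divalent metal transport tested, Slc40a1 rose with ampicillin (25% beside 21.3%). With tributyrin against mock gavage 2 fell (50% beside 23.2%), Slc40a1 and the importer gene Slc11a2, from 27.6 ± 1.41 to 23.0 ± 1.31 TPM (-0.25 ± 0.07, adjusted p = 0.0286). Against vehicle, the tributyrin group had 3 of the 10 copper genes called, 2 higher and 1 lower (30% beside 28.3%). Of the 4 manganese and divalent metal genes, 1 was called, higher (25% beside 28.3%).

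Of 7 heavy metal and oxidative stress genes tested, 2 rose with ampicillin and 1 fell (42.9% called beside 21.3% of all genes tested), and 1 rose and 1 fell with tributyrin against mock gavage (28.6% beside 23.2%). Hmox1, the haem oxygenase gene, rose from 1.58 ± 0.0733 to 5.19 ± 0.0905 TPM (n = 3; log2 difference 1.26 ± 0.07, limma adjusted p = 1.24e-05) and was lower with tributyrin, at 3.53 ± 0.165 TPM (-0.45 ± 0.07, adjusted p = 0.0025), the order of groups seen for Mt1 and Mt2. Nqo1, a quinone reductase gene, fell from 135 ± 11.2 to 83.9 ± 6.84 TPM (-0.68 ± 0.09, adjusted p = 0.00102) and was at 102 ± 7.65 TPM with tributyrin (0.28 ± 0.09, adjusted p = 0.0477). Gclc, the other gene that rose with ampicillin, is given above. Against vehicle, the tributyrin group had 5 of the 7 called, 4 higher and 1 lower (71.4% beside 28.3%). In the list of the glucocorticoid receptor and its common targets, 1 of 8 genes tested rose with ampicillin (12.5% beside 21.3%): Dusp1, a phosphatase gene also induced by many stresses, from 101 ± 11.3 to 191 ± 9.58 TPM (0.91 ± 0.08, adjusted p = 0.000172). With tributyrin against mock gavage 2 of the 8 fell (25% beside 23.2%): the clock gene Per1, from 11.6 ± 0.939 to 6.99 ± 0.809 TPM (-0.66 ± 0.10, adjusted p = 0.00259), and Klf9, from 20.6 ± 1.72 to 16.8 ± 1.74 TPM (-0.29 ± 0.09, adjusted p = 0.0458). The median log2 difference was 0.195 over the 8, which include the receptor gene Nr3c1 and the enzyme gene Hsd11b2, beside 0.05. Whether glucocorticoids had a part in these levels was not tested. Fkbp5, Tsc22d3 and Dusp1 were higher with tributyrin than with mock gavage, without overlap, but were not called (limma adjusted p = 0.0679, 0.0509 and 0.0508). Against vehicle, the tributyrin group had 4 of the 8 called, 2 higher and 2 lower (50% beside 28.3%).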
